A study of Mus musculus with 10 samples.

Results

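Cadherins are the calcium-dependent adhesion proteins of adherens junctions, and 6 of their genes, Cdh1, Cdh2, Cdh3, Cdh6, Cdh11 and Cdh16, were followed together with Epcam, the epithelial cell adhesion molecule. They were measured in ureteric bud (UB) organoids, in organoids of the collecting duct (CD) and in mouse CD (mCD) cells of the adult kidney. They were taken by gene name and not by their values, and are 7 of the 39273 genes listed. UB organoids came from the T-shaped UBs of E11.5 kidneys of Wnt11-RFP +/- embryos (C57BL/6 x Swiss Webster) and were collected after 5, 10 and 20 days of expansion in Matrigel in UB culture medium. CD organoids were UB organoids of day 10 kept for 7 further days in a differentiation medium that held FGF9 and Y27632, the inhibitors DAPT and PD0325901, and the hormones aldosterone and vasopressin. Adult mCD cells were sorted by FACS as Venus+ cells from the kidneys of Hoxb7-Venus mice of about 2 months, a reporter of the Hoxb7 promoter. The sample labels of these adult libraries name them organoids and give them the age and genotype of the embryos, whereas the series description and the study's methods describe sorted cells, and the latter is followed here. Each of the 5 groups had 2 libraries, and nothing says whether they came from separate cultures or animals, so the p-values measure the spread between these libraries, which may be technical.

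Classical cadherins bind the same or a related cadherin on the neighboring cell and are tied to actin inside the cell through beta-catenin and alpha-catenin. Cdh1 (E-cadherin) is the main cadherin of duct epithelium, Cdh3 (P-cadherin) is found in many embryonic and basal epithelia, and Cdh2 (N-cadherin) and Cdh6 (K-cadherin) are known from the early nephron and the proximal tubule. Cdh11 (OB-cadherin) is a cadherin of mesenchymal cells, and Cdh16 (Ksp-cadherin) is a kidney-specific cadherin with a short cytoplasmic tail, found along tubules and ducts. Epcam is a transmembrane protein of epithelial cells that is not a cadherin. In a cadherin switch, as the term is commonly used, Cdh1 gives way to Cdh2 or another cadherin. In CD organoids the levels below did not follow that pattern, as Cdh1 was highest and Cdh2 lowest there. Adult cells held less Cdh1 and more Cdh2 than CD organoids, and Cdh2 rose through UB culture. The part of other kidney cells in the adult values was not tested. Among the abundant cadherins, Cdh3 was lower and Cdh1 and Cdh16 were higher in CD organoids and adult cells than in UB organoids.

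Of the 7 genes, 4 lie on chromosome 8 (GRCm38, GENCODE M21). Cdh3 (chr8:106510891-106557297) and Cdh1 (chr8:106603351-106670246) lie on the plus strand, 46053 bases apart with 2 other annotated genes between them, and Cdh16 (chr8:104601911-104624396) and Cdh11 (chr8:102632095-102785642) lie on the minus strand of the same chromosome. Cdh6 lies on chromosome 15 (chr15:13028701-13173675, minus strand) and Epcam on chromosome 17 (chr17:87635979-87651129, plus strand). In the RefSeq promoter table, 2 of the 7 genes had an entry. Both are shown, as the only windows in the table, for Epcam, abundant in every library, and Cdh6, near the floor outside the adult cells. The 250 bases before each start are given on the gene's own strand, at chr17:87635729-87635978 for Epcam and chr15:13173676-13173925 for Cdh6 (GRCm38.p6). Capitals mark the E-box CACCTG or its complement CAGGTG, a site of Snail and Zeb factors, and the palindrome ACCGGT, the core bound by grainyhead-like (Grhl) factors. These motifs do not overlap each other.
Epcam: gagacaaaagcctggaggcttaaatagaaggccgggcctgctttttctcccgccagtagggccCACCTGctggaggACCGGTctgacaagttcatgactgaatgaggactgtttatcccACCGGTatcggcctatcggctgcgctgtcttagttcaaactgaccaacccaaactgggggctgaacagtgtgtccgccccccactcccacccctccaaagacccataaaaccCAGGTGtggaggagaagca
Cdh6: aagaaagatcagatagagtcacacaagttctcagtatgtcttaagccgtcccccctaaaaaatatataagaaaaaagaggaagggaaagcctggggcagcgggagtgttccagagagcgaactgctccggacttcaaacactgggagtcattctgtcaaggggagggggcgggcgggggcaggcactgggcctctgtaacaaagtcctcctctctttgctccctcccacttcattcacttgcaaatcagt

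The Epcam window held 2 E-boxes and 2 ACCGGT cores, and the Cdh6 window held neither. Among all 32851 windows of this length, 17.2% held at least 1 E-box and 2.06% at least 2. The ACCGGT core was in 1.86% of the windows and 0.0274% held at least 2. The HNF1 half-site GTTAAT or ATTAAC, searched in the same way, was in 6.43% of all windows and in neither of these. A match describes letters and not binding.

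The libraries held 11913613 to 24536676 counts, so that 3 counts, the floor used here for a gene near 0, correspond to 0.109 to 0.241 CPM, the count as a part of the library total. Those of day 5 and day 10 held 22858971 to 24536676 counts, and the others 11913613 to 16759872. Whether these 2 sets were prepared or sequenced apart is not known. Comparisons of day 20 or CD organoids with day 10 cross this division, and its part in them cannot be told apart from that of culture. CPM values below are scaled with TMM factors and serve to compare a gene across libraries. Of 24410 genes with at least 10 counts in all, all 7 among them, a gene was called in a comparison when it changed over 4-fold with an adjusted p no larger than 0.01. The 6 comparisons share libraries and are not independent. Of 9 duct markers, Gata3, Hoxb7, Pax2, Krt8 and Krt18 were at 68.2 CPM or more in every library. Aqp2, the water channel of principal cells, was between 0.0408 and 6.88 CPM in UB organoids, 632 and 485 CPM in CD organoids and 4542 and 4374.5 CPM in adult mCD cells. Aqp3, Foxi1 and Atp6v1b1 were at most 2.78 CPM in UB organoids. Aqp3 was at 23.6 and 19.0 CPM in CD organoids and 1948 and 1891 CPM in adult cells. Foxi1 was at 508 and 472 CPM in CD organoids, above the adult cells (169 and 169 CPM). Atp6v1b1 was at 429 and 400 CPM in CD organoids and 595 and 616 CPM in adult cells. The adult libraries also held markers of other kidney cells at high level, with a summed 5089 and 5991 CPM for 10 proximal tubule markers, against 19.8 to 49.9 CPM in the 8 organoid libraries, 3480.1 and 3684 CPM for 5 loop of Henle markers, against 0.474 to 13.1 CPM, and 693.8 and 696 CPM for 6 endothelium markers, against 1.78 to 9.51 CPM. All 10, 5 and 6 of these markers were above 3 counts in the adult libraries. Their part in the adult values below was not tested. In bulk RNA, fewer cells of a type and less RNA per cell cannot be told apart.

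**Figure D1:**
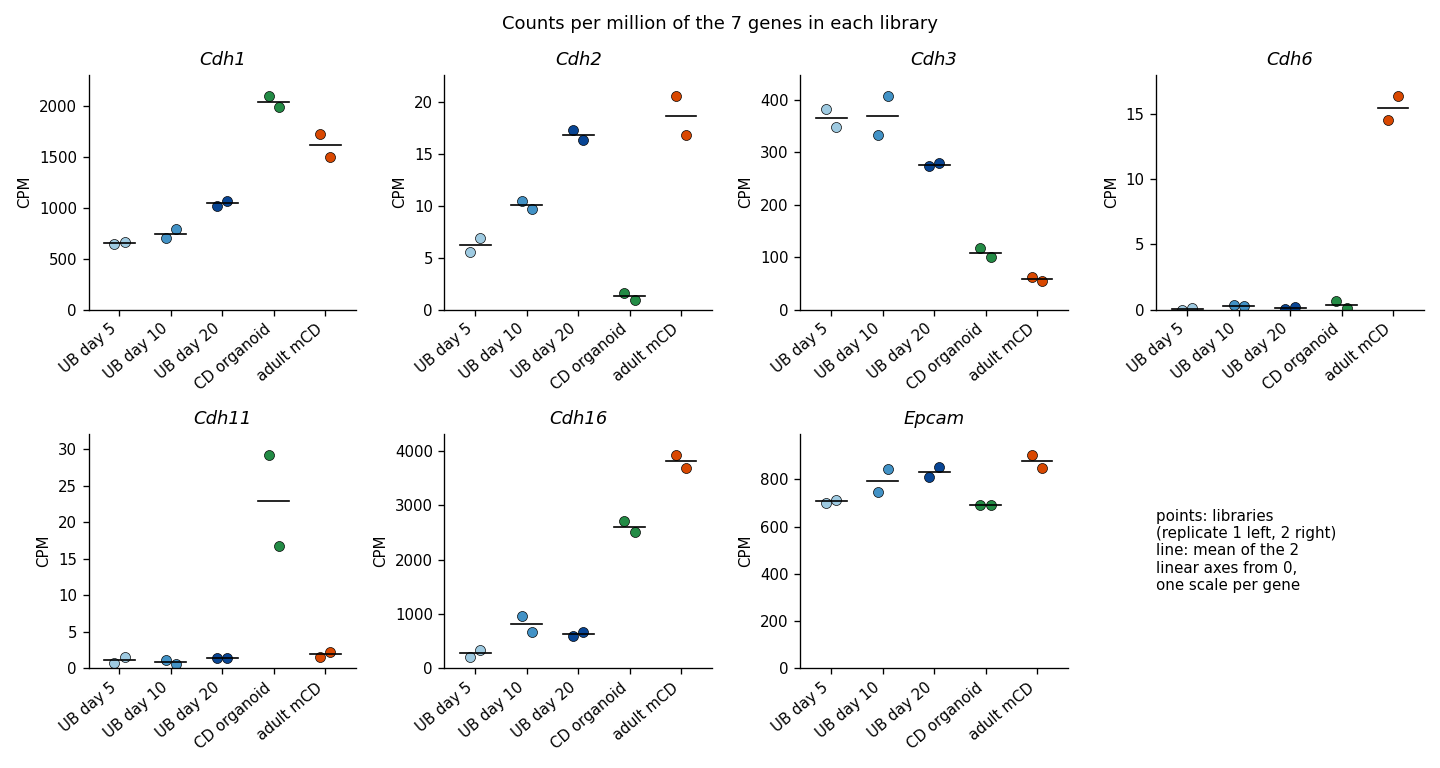
Level of each of the 7 genes in each of the 10 libraries, in CPM on linear axes from 0 with a scale of its own for each gene; points are libraries and lines are means of 2. Cdh1 and Cdh16 were highest in CD organoids and adult mCD cells, Cdh3 was highest in UB organoids of day 5 and 10, Cdh11 stood out in CD organoids and Cdh6 in adult mCD cells, and Epcam ranged from 690.0 to 903.1 CPM.

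Cdh1 was at 643.7 and 663 CPM at day 5, 698 and 786 CPM at day 10 and 1015 and 1067 CPM at day 20 of UB organoid culture. It was at 2093 and 1985 CPM in CD organoids and 1722 and 1496 CPM in adult mCD cells. The 5 groups did not overlap, in the order CD organoids, adult mCD cells, and UB organoids of day 20, 10 and 5. Cdh1 passed the 4-fold call in none of the 6 comparisons. At an adjusted p of at most 0.05 without a fold limit it was higher at day 20 than at day 10 (log2 fold change 0.49 ± 0.09 (SE), adjusted p = 0.000888). CD organoids were 2.75-fold above day 10, the day at which differentiation was begun (1.46 ± 0.09, adjusted p = 1.05e-08). The CD organoids were 1.96-fold above UB organoids of day 20 (log2 0.97 ± 0.09, adjusted p = 6.53e-07). They were also 1.27-fold above the adult cells (log2 0.34 ± 0.09, adjusted p = 0.00466), and this difference missed the threshold without replicate 2 of the adult libraries (0.23, adjusted p = 0.0842) or replicate 1 of the CD organoids (0.30, adjusted p = 0.0503). Adult cells were 1.55-fold above UB organoids of day 20 (0.63 ± 0.09, adjusted p = 2.51e-05). With library totals in place of TMM factors this adult rise is smaller, and the excess of CD organoids over adult cells is larger. The step from day 5 to day 10 was 0.18 ± 0.09 with an adjusted p of 0.127.

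Cdh3 ran the other way. It was at 383 and 347 CPM at day 5, 332 and 407 CPM at day 10 and 273 and 278 CPM at day 20. CD organoids held 117 and 100.3 CPM and adult mCD cells 62.3 and 53.8 CPM. Day 5 and day 10 overlapped, and every later group lay below the one before. The difference between day 10 and day 5 was 0.02 ± 0.10 on the log2 scale (adjusted p = 0.936). Cdh3 was lower at day 20 than at day 10 (-0.42 ± 0.10, adjusted p = 0.00841), although this missed the threshold without replicate 2 of day 10 (-0.24, adjusted p = 0.0640) and without replicate 1 or 2 of day 20 (adjusted p = 0.0887 and 0.0533). In CD organoids it was 3.40-fold below UB organoids of day 10 (log2 -1.77 ± 0.11, adjusted p = 1.39e-08) and 2.54-fold below those of day 20 (-1.34 ± 0.11, adjusted p = 2.39e-07), both under the 4-fold limit. The adult cells were 4.74-fold below UB organoids of day 20 (-2.24 ± 0.11, adjusted p = 9.59e-10), which passed the call. CD organoids remained 1.87-fold above the adult cells (0.90 ± 0.11, adjusted p = 1.43e-05).

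Cdh16 was at 208 and 338 CPM at day 5, 963 and 671 CPM at day 10 and 589.5 and 675 CPM at day 20. It reached 2705 and 2499.6 CPM in CD organoids and 3923 and 3689.8 CPM in adult mCD cells. Day 10 and day 20 overlapped, and the 2 libraries of day 5 and of day 10 lay well apart from each other. It rose 2.99-fold from day 5 to day 10 (log2 1.58 ± 0.19, adjusted p = 3.72e-05), and did not pass a test between day 20 and day 10 (-0.37 ± 0.19, adjusted p = 0.167). CD organoids were 3.18-fold above UB organoids of day 10 (1.67 ± 0.19, adjusted p = 6.33e-06) and 4.12-fold above day 20 (2.04 ± 0.20, adjusted p = 1.20e-06). The latter is just past the 4-fold limit, and the call was lost without replicate 1 of CD organoids (log2 1.98) or without replicate 1 of UB organoids of day 20 (1.94). The adult cells were 6.02-fold above UB organoids of day 20 (2.59 ± 0.20, adjusted p = 6.54e-08) and 1.46-fold above CD organoids (-0.55 ± 0.19 for CD organoids against adult, adjusted p = 0.0266), a difference that missed the threshold in each of the 4 fits that left out a library (adjusted p of 0.0614 to 0.148). With library totals in place of TMM factors both adult rises are smaller.

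Epcam varied least. It was at 700.1 and 712 CPM at day 5, 746 and 842 CPM at day 10, 809.5 and 853 CPM at day 20, 691 and 690.0 CPM in CD organoids and 903 and 848 CPM in adult mCD cells. The CD organoids lay below every other group, while day 10 and day 20, and day 20 and the adult cells, overlapped. Against UB organoids of day 20, CD organoids were 1.20-fold lower (log2 -0.27 ± 0.08, adjusted p = 0.0121), and against those of day 10, 1.15-fold lower (-0.20 ± 0.08, adjusted p = 0.0453). Both missed the threshold without replicate 1 or 2 of the CD organoids (adjusted p of 0.0654 to 0.197) and without replicate 2 of the UB organoids (adjusted p = 0.1000 for day 20 and 0.353 for day 10). Against the adult cells they were 1.27-fold lower (-0.34 ± 0.08, adjusted p = 0.00205), but with library totals in place of TMM factors the sign turned (0.05, adjusted p = 0.599). The difference between adult cells and day 20 (0.08 ± 0.08, adjusted p = 0.433) likewise turned with library totals (-0.38, adjusted p = 0.000587). In the adult comparisons that scaling moved the median log2 fold change of all genes to 0.34 for CD organoids against adult and -0.47 for adult against day 20, from 0.00 and -0.06.

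Cdh2, on the minus strand at chr18:16588877-16809246, was at 5.55 and 6.94 CPM at day 5, 10.5 and 9.70 CPM at day 10 and 17.3 and 16.3 CPM at day 20. CD organoids held 1.57 and 0.962 CPM (22 and 12 counts) and adult mCD cells 20.6 and 16.8 CPM. The UB groups did not overlap, CD organoids lay below all of them, and the adult cells overlapped day 20. Cdh2 was 1.61-fold higher at day 10 than at day 5 (log2 0.69 ± 0.17, adjusted p = 0.00785), though not without replicate 1 of day 5 (0.55, adjusted p = 0.0726), and 1.66-fold higher at day 20 than at day 10 (0.73 ± 0.17, adjusted p = 0.00514). In CD organoids it was called lower against day 10 (7.62-fold, log2 -2.93 ± 0.24, adjusted p = 1.61e-07), day 20 (12.7-fold, -3.66 ± 0.23, adjusted p = 2.06e-08) and the adult cells (14.1-fold, -3.82 ± 0.23, adjusted p = 1.00e-08). Adult cells and day 20 did not pass a test (0.15 ± 0.17, adjusted p = 0.466), and the sign of that value was negative with library totals (-0.30).

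Cdh11 was at 0.656 to 1.59 CPM in the 6 UB organoid libraries and at 1.58 and 2.20 CPM in the adult cells. In CD organoids it was at 29.2 and 16.7 CPM (410 and 208 counts), above every other library. It was called higher in CD organoids against day 10 (25.3-fold, log2 4.66 ± 0.38, adjusted p = 1.51e-07), day 20 (15.6-fold, 3.96 ± 0.37, adjusted p = 8.80e-07) and the adult cells (11.9-fold, 3.57 ± 0.37, adjusted p = 1.81e-06). Of 7 stroma markers, 4 were called higher in CD organoids against day 10 and 4 against day 20, with 10.7% and 9.46% of all genes called in either direction. The summed level of the 7 was 258 and 127 CPM in CD organoids against 9.25 to 39.8 CPM in UB organoids, with replicate 1 above replicate 2 as for Cdh11. Col3a1 was at 119 and 61.3 CPM, Col1a1 at 76.4 and 30.6 CPM, Col1a2 at 41.4 and 23.4 CPM and Pdgfra at 17.4 and 9.62 CPM in CD organoids, and these 4 were the ones called against both days. Without replicate 1 of the CD organoids the calls of Pdgfra (log2 1.75 and 1.59 against day 10 and day 20) and of Col3a1 against day 10 (3.15, adjusted p = 0.0161) were lost. Pdgfrb, at 3.28 and 1.68 CPM in CD organoids, was lower than at day 10 (log2 -0.87 ± 0.25, adjusted p = 0.0104) and higher than at day 20 (1.03 ± 0.32, adjusted p = 0.0161), without a call. The former missed the threshold of 0.05 without replicate 2 of the CD organoids (adjusted p = 0.141), and the latter without replicate 1 (adjusted p = 0.374) and without replicate 1 of day 20. Foxd1 and Tbx18 were at or under 3 counts in both CD organoid libraries. In the adult cells the same list summed to 136 and 150.4 CPM while Cdh11 was at 1.58 and 2.20 CPM. Among leukocyte markers, Ptprc was at 43.7 and 37.4 CPM in CD organoids, and 4 of the 6 were at or under 3 counts. The part of such cells in the Cdh11 level was not tested.

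Cdh6 was counted 0 and 3 times at day 5, 8 and 8 times at day 10, 1 and 3 times at day 20, and 9 times and once in CD organoids. In adult mCD cells it was counted 193 and 208 times (14.5 and 16.3 CPM). The adult cells stood apart from every other group and the organoid groups overlapped or lay near the floor. Against UB organoids of day 20 the adult level was at least 81.2-fold higher, taken against 3 counts in each library, and was called (adjusted p = 1.23e-07). CD organoids were called lower than adult cells (log2 -5.18 ± 0.49, adjusted p = 6.49e-07), with -6.87 without replicate 1 and -4.50 without replicate 2 of the CD organoids. Proximal tubule markers were at similarly distinct levels, with Slc34a1, the phosphate transporter of that segment, at 1419 and 1743 CPM in the adult libraries and at most 2.33 CPM in any organoid library. The part of such cells in the Cdh6 level was not tested.

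**Figure D2:**
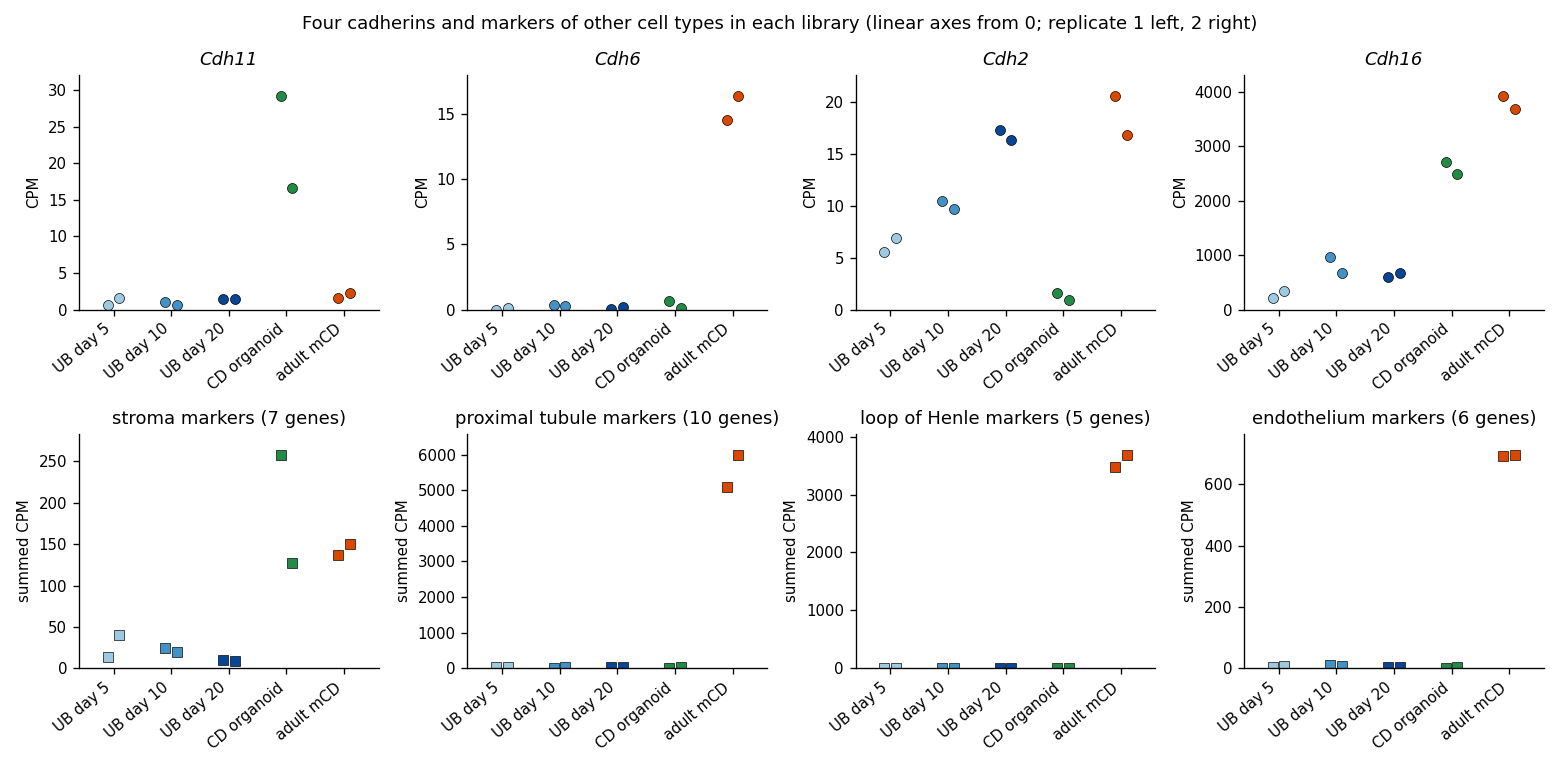
Cdh11, Cdh6, Cdh2 and Cdh16 (circles, CPM) above the summed CPM of marker lists for stroma, proximal tubule, loop of Henle and endothelium (squares), for each of the 10 libraries on linear axes from 0. The 2 CD organoid libraries hold the highest Cdh11, 29.2 and 16.7 CPM, and the tubule and endothelium lists are high in the adult libraries only among those shown.

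Across the comparisons, none of the 7 genes was called between day 10 and day 5, where 3.41% of all tested genes were called, or between day 20 and day 10, where 3.39% were. Without a fold limit, 2 of 7 (Cdh2 and Cdh16, both higher) differed at an adjusted p of at most 0.05 between day 10 and day 5, against 32.7% of all genes, and 3 of 7 (Cdh1 and Cdh2 higher, Cdh3 lower) between day 20 and day 10, against 29.0%. In CD organoids against day 10, 2 of 7 were called, Cdh11 higher and Cdh2 lower, with 10.7% of all genes called, and 6 of 7 differed without a fold limit, with 47.2% of all genes. Against day 20, 3 of 7 were called, Cdh11 and Cdh16 higher and Cdh2 lower, with 9.46% of all genes, and 6 of 7 differed without a fold limit, with 42.2%. In CD organoids against adult mCD cells, 3 of 7 were called, Cdh11 higher and Cdh2 and Cdh6 lower, with 14.3% of all genes, and 7 of 7 differed without a fold limit, with 49.9%. In adult cells against day 20, 3 of 7 were called, Cdh6 and Cdh16 higher and Cdh3 lower, with 19.2% of all genes, and 4 of 7 differed without a fold limit, with 56.4%.

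**Figure D3:**
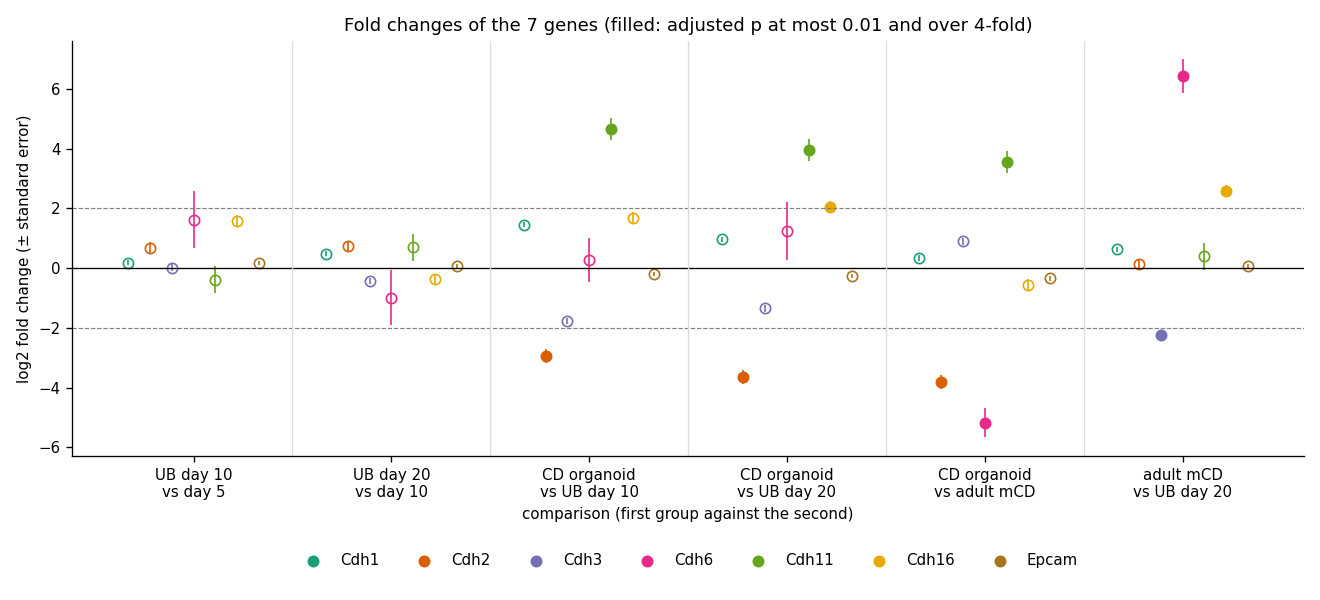
Log2 fold change with its standard error for the 7 genes in each of 6 comparisons; filled points passed the call (over 4-fold, adjusted p no larger than 0.01), and dashed lines mark 4-fold. Day 10 against day 5 and day 20 against day 10 have no filled point, and in the 3 CD organoid comparisons Cdh11 lies above and Cdh2 below the 4-fold lines.

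Levels of different genes can be compared only per length, and the deposited RPKM values divide by a length that, for 98.2% of the 39136 genes found in GENCODE M21, equals the exon lengths summed over all annotated transcripts plus the number of exons. That length is 15369 bases for Cdh16, which has 14 transcripts, against 3792 bases of merged exons, a ratio of 4.05. The ratio was 1.85 for Cdh1, 2.69 for Epcam and 1.00 for Cdh3, which has 1 transcript. Fold changes of a gene are not touched by this choice, but the order of genes is. On the deposited RPKM scale, Cdh1 was above Cdh16 in CD organoids, at 255 and 242 RPKM against 182 and 168 RPKM. Per kilobase of merged exons Cdh16 was above Cdh1 there, at 713 and 659 RPKM on that length against 457 and 434 RPKM. In UB organoids of day 20 Cdh1 was above Cdh16 on both scales, and in adult cells Cdh16 was above Cdh1 on both.

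Ratios within a library show how the abundant cadherins moved against each other. Per kilobase of merged exons, the ratio of the Cdh1 level to the Cdh3 level, which no scaling between libraries can change, was 1.72 ± 0.15 (SD, n = 2) at day 5, 1.93 ± 0.11 at day 10, 3.62 ± 0.08 at day 20, 18.1 ± 1.25 in CD organoids and 26.6 ± 0.11 in adult cells. With the deposited lengths the ratio was 0.934 ± 0.08 at day 5 and 14.4 ± 0.06 in adult cells. Cdh3 was thus above Cdh1 at day 5 on the deposited scale and below it per kilobase of merged exons. The ratio of Cdh16 to Cdh3 was 0.876 ± 0.35 at day 5, 2.63 ± 1.02 at day 10, 2.65 ± 0.22 at day 20, 27.8 ± 1.41 in CD organoids and 76.0 ± 4.58 in adult cells, per kilobase of merged exons. The ratio of Cdh1 to Epcam was 0.444 ± 0.004 at day 5, 0.448 ± 0.001 at day 10, 0.601 ± 0.001 at day 20, 1.42 ± 0.05 in CD organoids and 0.881 ± 0.05 in adult cells.

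**Figure D4:**
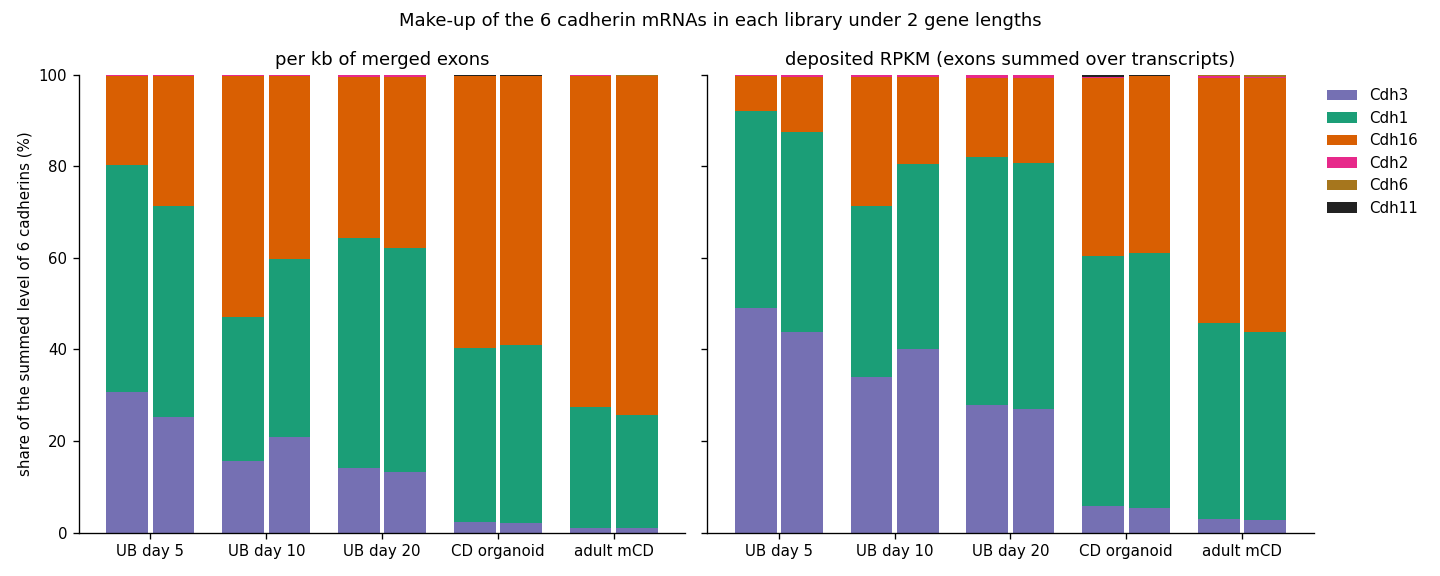
Share in percent of each of 6 cadherins in their summed level, for each of the 10 libraries, per kilobase of merged exons (left) and by deposited RPKM (right); each bar is a library. Cdh3 shrinks from day 5 UB organoids to adult mCD cells in both panels, and the larger of Cdh1 and Cdh16 in CD organoids differs between them.

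As a share of the 6 cadherins summed per kilobase of merged exons, Cdh3 made up 28.0% ± 3.93 (SD, n = 2) at day 5, 18.3% ± 3.73 at day 10, 13.7% ± 0.55 at day 20, 2.13% ± 0.12 in CD organoids and 0.964% ± 0.04 in adult cells. Cdh16 made up 23.8% ± 6.33 at day 5, 46.2% ± 8.88 at day 10, 36.2% ± 1.52 at day 20, 59.2% ± 0.31 in CD organoids and 73.1% ± 1.09 in adult cells. Cdh1 made up 47.9% ± 2.45, 35.2% ± 5.15, 49.6% ± 0.93, 38.5% ± 0.51 and 25.6% ± 1.06 in the same order. Cdh2, Cdh6 and Cdh11 were each below 0.5% of the sum on average in every group. On the deposited RPKM scale the Cdh3 share was 46.5% ± 3.71 at day 5 and 2.90% ± 0.10 in adult cells, and the Cdh16 share 9.93% ± 3.22 and 54.6% ± 1.37. The summed level of the 6 cadherins itself was 299 ± 21.6 RPKM on merged exons at day 5, 463 ± 28.9 at day 10, 459.5 ± 24.8 at day 20, 1159.5 ± 58.5 in CD organoids and 1373 ± 79.9 in adult cells.

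The 17 other cadherins of the table were mostly rare, and 15 were tested. Against day 10, CD organoids held 6 that were called lower and 0 higher, with a median log2 fold change of -1.41 against -0.15 for all genes, and 4 lower and 0 higher against day 20. Over all genes 10.7% and 9.46% were called. The median of -1.41 was the value of Cdh12, a gene near the floor that did not pass the test (adjusted p = 0.269). Its mean was 0.187 CPM at day 10 and 0.0356 CPM in CD organoids. Cdh24, a cadherin that binds beta- and alpha-catenin, was at 36.6 to 58.9 CPM in UB organoids, 7.55 and 8.26 CPM in CD organoids and 3.84 and 2.91 CPM in adult cells, and was called lower in CD organoids against day 20 (log2 -2.69 ± 0.20, adjusted p = 1.21e-07). Cdh4 (R-cadherin) was at 1.14 and 1.60 CPM in CD organoids and 6.62 to 14.0 CPM in UB organoids (log2 -2.85 ± 0.36 against day 20, adjusted p = 1.35e-05). Cdh5, the cadherin of endothelium, was at 153 and 140.5 CPM in adult cells and at most 0.727 CPM elsewhere, and was called higher in adult cells, next to Pecam1, an endothelial adhesion molecule, at 156 and 159 CPM.

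Of the genes that link cadherins to the cytoskeleton, 17 were tested. Ctnnb1 (beta-catenin) stayed between 700.2 and 843 CPM in all 10 libraries, with log2 fold changes between -0.17 and 0.23 in the 6 comparisons. Ctnna1 (alpha-catenin) was at 542 to 666 CPM in UB organoids, 956 and 931 CPM in CD organoids and 1352 and 1245 CPM in adult cells, and Jup (plakoglobin, shared by adherens junctions and desmosomes) at 189.6 to 265 CPM, 391 and 381 CPM, and 712 and 624 CPM. Against day 20, Ctnna1 was higher by 0.78 ± 0.07 and Jup by 1.03 ± 0.08 on the log2 scale in CD organoids (adjusted p = 6.30e-07 and 9.90e-08), both below 4-fold. Ctnnd2 (delta-catenin), which binds the tail of classical cadherins, went the other way. It was at 108 to 136 CPM in UB organoids, 6.55 and 4.33 CPM in CD organoids and 1.88 and 1.18 CPM in adult cells, and was the only called gene of this list in CD organoids against day 10 (log2 -4.36 ± 0.15, adjusted p = 5.18e-11) and day 20 (-4.54 ± 0.15, adjusted p = 5.71e-11). In CD organoids against day 20, 8 of 17 were higher and 4 lower at an adjusted p of at most 0.05 without a fold limit, beside 5122 higher and 5189 lower of all genes.

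Desmosomes are the junctions of keratin filaments, and 12 of their genes were tested. Dsp (desmoplakin, the linker to keratin) fell through UB culture, from 463 and 426 CPM at day 5 to 241 and 206 CPM at day 10 and 92.1 and 106 CPM at day 20. It was at 523 and 511 CPM in CD organoids and 821 and 705 CPM in adult cells, and was called higher in CD organoids against day 20 (log2 2.38 ± 0.11, adjusted p = 8.14e-10) but not called against day 10 (1.21 ± 0.10, adjusted p = 2.71e-07). Ppl (periplakin) was at 33.1 to 58.9 CPM in UB organoids, 135 and 137 CPM in CD organoids and 160.3 and 128 CPM in adult cells. Evpl (envoplakin) was at 11.1 to 24.5 CPM, 48.0 and 45.2 CPM, and 114 and 96.1 CPM. Dsg2 (desmoglein) was near level between CD organoids and day 20 (0.06 ± 0.07, adjusted p = 0.538). As a list, 1 gene was called higher and 1 lower in CD organoids against day 20, where 9.46% of all genes were called, and 5 were higher and 1 lower without a fold limit, where 42.2% of all genes differed.

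Of the 6 partners of Epcam examined, 5 were higher and 0 lower in CD organoids against day 20 at an adjusted p of at most 0.05, with 42.2% of all genes passing in either direction and a median log2 fold change of 0.72 against 0.00 for all genes, and none was called at 4-fold. Cldn7, a claudin that binds Epcam, was at 183 to 216 CPM in UB organoids, 386 and 380 CPM in CD organoids and 373 and 334 CPM in adult cells (0.92 ± 0.08 for CD organoids against day 20, adjusted p = 4.39e-07).

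**Figure D5:**
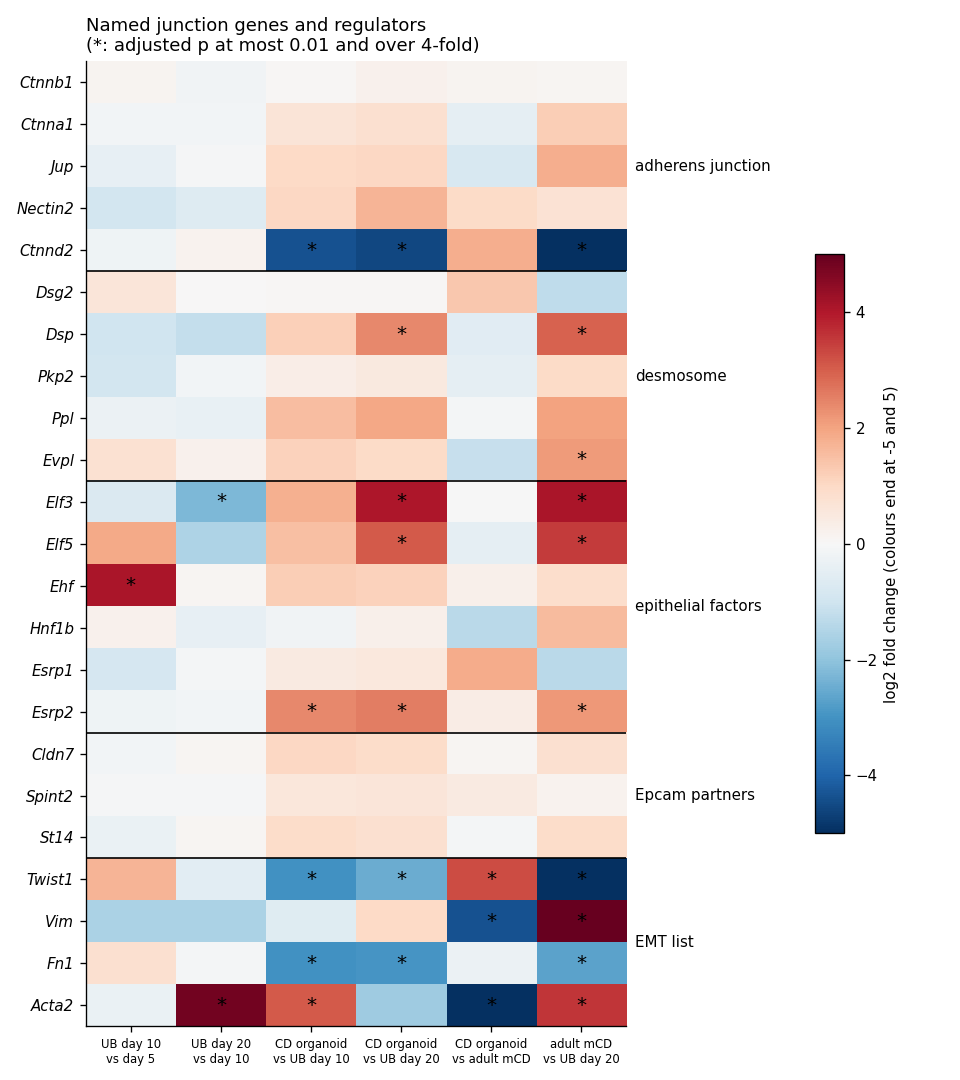
Log2 fold changes of genes from 5 lists (rows) in 6 comparisons (columns), with colours ending at -5 and 5 and asterisks for genes called. Ctnnd2, Twist1 and Fn1 are blue and Dsp, Elf3 and Esrp2 red in CD organoids against day 20, while Ctnnb1 stays near white.

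Among 12 factors that promote epithelial expression, 3 passed the call as higher in CD organoids against day 20 and 0 as lower, with 1156 higher and 1154 lower (9.46%) of all genes. Against day 10, 1 was called higher, Esrp2 (log2 2.42 ± 0.08, adjusted p = 5.62e-11), and 0 lower, with 10.7% of all genes called. The 3 called against day 20 were Elf3 (log2 4.05 ± 0.23, adjusted p = 7.25e-09) and Elf5 (3.06 ± 0.15, adjusted p = 2.28e-09), both Ets factors, and Esrp2 (2.55 ± 0.09, adjusted p = 7.54e-11), a splicing factor of epithelial isoforms. Esrp2 was at 18.1 to 24.8 CPM in UB organoids, 108 and 114 CPM in CD organoids and 86.9 and 82.3 CPM in adult cells. Elf3 was at 22.1 and 29.9 CPM at day 20 but at 191 and 218 CPM at day 5, and was not called in CD organoids against day 10 (1.79 ± 0.20, adjusted p = 4.86e-06). Esrp1, the paralog of Esrp2, was at 64.2 and 56.1 CPM in adult cells, below all organoid libraries (151 to 299 CPM).

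The list of epithelial to mesenchymal transition (EMT) factors and mesenchymal genes held 11 genes. In CD organoids 2 were called higher and 2 lower against day 10, and 1 higher and 2 lower against day 20, with 10.7% and 9.46% of all genes called. Twist1, a transcription factor of mesenchyme, was at 40.5 and 34.5 CPM at day 5, 120.1 and 122 CPM at day 10 and 87.7 and 81.8 CPM at day 20, and was called lower in CD organoids (14.0 and 16.0 CPM) against both day 10 (log2 -3.01 ± 0.13, adjusted p = 4.16e-10) and day 20 (-2.50 ± 0.13, adjusted p = 3.36e-09). Fn1 (fibronectin) was at 375 to 708 CPM in UB organoids and 116 and 49.6 CPM in CD organoids, and was called lower against day 20 (-2.94 ± 0.26, adjusted p = 5.41e-07), with values from -3.68 (without replicate 1 of the CD organoids) to -2.47 when a library was left out. Zeb1, a repressor of Cdh1 that is named here after its values were seen, was at 0 to 0.661 CPM in UB organoids and at 4.56 and 2.17 CPM in CD organoids. It was called higher against day 10 (3.82 ± 0.66, adjusted p = 0.000117) and day 20 (2.62 ± 0.61, adjusted p = 0.00225), and the latter call was lost without replicate 1 of the CD organoids (1.99, adjusted p = 0.0503) and without either library of day 20. Acta2 (smooth muscle actin) was at 0.855 and 0.561 CPM in CD organoids, at 0.0396 and 0.0365 CPM at day 10, both under 3 counts, and at 2.43 and 2.71 CPM at day 20. It was called higher against day 10 (at least 6.20-fold, adjusted p = 0.000287) and was lower, without a call, against day 20 (-1.77 ± 0.36, adjusted p = 0.000868). In adult cells 6 of the 11 genes were called higher and 2 lower against day 20, where 19.2% of all genes were called. Vim (vimentin) was at 248 and 232 CPM there and at most 56.5 CPM in any organoid library. The endothelium markers, high in the same 2 adult libraries, are given above, and their part in these adult values was not tested.

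Over the 10 libraries, the genes whose log2(CPM + 1) ran most like each of the 7 were found among 11922 genes with a mean of at least 10 CPM in a group. These libraries form 5 pairs and the likeness is between group patterns. Cdh1 was most like Tlr4 (Pearson's r = 0.997), Trappc3 and Cdc42se2, and Cdh3 most like Rnft2 (0.996), Prmt1 and Cdk5rap2. Cdh16 was most like Dclk3 (0.993), Ptgs1 and Bad, and Cdh2 most like Mttp (0.981), Dusp18 and Slc20a1. Cdh6 was most like Fmo1 (0.996), Slc22a4 and Acnat2, with Fmo1 at a mean of 119 CPM in adult cells and at most 0.472 CPM elsewhere. Cdh11 was most like Lrrc29 (0.985), Nectin4 and Plin4, and Epcam most like Kpna4 (0.973), Eloc and Lsm6. Among the 7 genes themselves, r was -0.86 for Cdh1 and Cdh3, 0.88 for Cdh1 and Cdh16, -0.92 for Cdh3 and Cdh16, -0.32 for Cdh1 and Cdh2 and 0.08 for Cdh1 and Epcam.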

How the data were processed

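RNA-seq of 10 libraries, 2 in each of 5 groups, was analysed from the deposited gene table, without the reads. Per the labels the authors used FastQC 0.11.8, cutadapt 2.5, Trimmomatic 0.36, STAR and edgeR 3.28.1 on GRCm38.p6, and the study's methods name Partek Flow with GENCODE M24. The labels and methods also name different RNA and library kits, and which applies is not settled. The authors deposited whole-number counts, RPKM values, and TMM values, a signal that is a scaled count. The deposited counts were the input here. The deposited RPKM entered between-gene levels and the choice of named genes only. The TMM signal entered a check of the columns and the limma alternative.

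Counts went into edgeR 4.0.16 (R 4.3.3) and its quasi-likelihood test, with TMM factors, a prior count of 1, one fit of the 10 libraries and Benjamini-Hochberg adjustment over 24410 genes with at least 10 counts. Common dispersion was 0.00831. With 2 libraries per group, this shared spread carries the test. Counts were simulated for CD organoids against day 10 with the common dispersion for every gene. The test found 200 of 200 genes changed by 3 on the log2 scale and made 0 false calls over 23583 genes. The changed genes had at least 1 CPM on average. The simulation leaves out that the spread differed between genes and groups, so it checks the code and not the error in these data. The floor of 3 counts covers counting error only. Levels per kilobase of merged exons used GENCODE M21. Other tools were limma 3.58.1, DESeq2 1.42.0, Python 3.11.15, numpy 2.4.6, pandas 2.3.3 and matplotlib 3.10.9. The 7 genes and the lists were chosen with earlier results of these data known. From each list the text names up to 4 genes by mean RPKM and called genes with at least 5 RPKM in a group, and for each of the 7 genes the 3 most alike. Pdgfra and Slc34a1 stand for their lists as markers, and Pdgfrb and Zeb1 were named after their values were seen. Replicate numbers showed no strong pairing of the libraries. Over 10539 genes, correlations of deviations ran from -0.12 (UB organoids of day 10 and day 20) to 0.21 (UB organoids of day 20 and CD organoids). Alternatives were a prior count of 5, no filter, filterByExpr, DESeq2 size factors, library totals, DESeq2, limma, the 4 libraries compared, a replicate block and leaving out each library. One gene of the Epcam partner list is not reported here, and the counts of that list leave it out.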

Additional observations from a re-analysis of the deposited data

How the results depend on the processing

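The calls of the 7 genes at 4-fold were the same set under every alternative in 5 of the 6 comparisons. In CD organoids against day 20 UB organoids, Cdh16 was lost in 5 alternatives (log2 1.94 to 2.00), with 2 in place of 3 genes called. With an adjusted p of at most 0.05 and no fold limit the counts were 2, 3, 6, 6 and 7 in the first 5 comparisons and 4 in the last. The replicate block gave 0, 0, 2, 3, 3 and 3 called genes, as without it, and crossed numbers, added after seeing the data, gave 0 between day 20 and day 10. The sign turned for small, uncalled differences. With library totals and limma these were Epcam in CD organoids against adult cells (0.0516 and 0.0522), and in adult cells against day 20 Cdh2 (-0.30 and -0.31), Cdh11 (-0.0478 and -0.0602) and Epcam (-0.38 and -0.38). The limma fit took the deposited TMM signal, which sums to nearly the same total in every library. It thus scales by library totals too, and the 2 settings are not separate checks of the scaling. limma also turned Cdh6 in CD organoids against day 10 (-0.27). Leaving out each library in turn gave log2 fold changes of both signs between day 10 and day 5 for Cdh3 (-0.15 to 0.15) and Cdh11 (-0.84 to 0.31), for Cdh6 in CD organoids against day 10 (-1.42 to 0.97) and day 20 (-0.43 to 1.95), and in adult cells against day 20 for Cdh2 (-0.0653 to 0.28) and Epcam (-0.0368 to 0.11). The turns came without replicate 2 of day 5 or day 10, replicate 1 of CD organoids and replicate 1 of adult cells. The causes were not tested. At 11913613 to 24536676 counts a library, differences of Cdh6 among the organoid groups, at 0 to 9 counts, were not detectable.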
